A study of Rattus norvegicus with 8 samples.

Results

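A set of 10 genes of spermatogonial differentiation and entry into meiosis was followed in CD9-positive cells sorted from the testes of aged and young rats: Kit, Kitlg, Stra8, Sohlh1, Sohlh2, Dmrt1, Dmrtb1, Tex101, Prss50 and Ccnd2. Members were found by matching the accession of each array probe, with its version removed, to rat RefSeq symbols. By this rule 7 of the 10 genes had a probe, out of 15154 named genes with a probe, and all 7 were among the 10236 genes tested. Stra8, Sohlh1 and Prss50 matched no probe accession and were not analysed here. Each of the 7 was well above background on 4 of 4 aged and 4 of 4 young arrays, so none entered the test through 1 age group alone.

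The aged group held 4 samples from rats of 21 months and the young group held 4 samples from rats of 4 months. All were Sprague Dawley rats carrying a GFP transgene specific to germ cells, in both age groups alike. Testes were dissociated and CD9-positive cells were collected by fluorescence-activated sorting with an antibody, and the labels do not say whether GFP also entered the gate, how many animals gave each sample, or whether samples came from separate animals. The p-values below therefore cover only sample-to-sample spread, of which part or all may be technical. From each sample 18 ng of RNA was amplified, labelled with Cy3 and hybridised to its own one-colour Agilent array.

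Spermatogonia are the mitotic germ cells of the testis, and a wave of retinoic acid commits them to differentiation. Differentiating spermatogonia carry the receptor tyrosine kinase KIT and divide under KIT ligand from Sertoli cells, the somatic nurse cells of the tubule. In the mouse, SOHLH proteins promote this step, DMRT factors govern the timing of the switch to meiosis, and STRA8 drives meiotic entry. CD9, a tetraspanin, is a surface protein of rat and mouse germline stem cells that is also present on other testis cells.

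The arrays carried 30367 non-control probes, of which 63.0% to 72.0% were well above background per array, with no saturated spot. Precision is limited by the small number of arrays. Levels are log2 signals minus the 75th percentile of the same array, so a level of 0 equals that percentile. Differences are aged minus young on the log2 scale. Calls are genes whose p in limma's moderated test, adjusted over all genes by Benjamini-Hochberg, was under 0.05. Of the genes tested, 51 were called higher and 16 lower in aged cells. Aged means were higher in 63.4% of all genes, called or not, and the median difference over all genes was 0.11. Scaling to spike-in controls instead gave 6 higher and 952 lower calls and moved that median to −0.35. Normexp background correction gave 365 higher and 268 lower calls with 75th percentile scaling, and 223 higher and 36 lower with quantile scaling. Cd9 differed by −0.16 (adjusted p = 0.492) and Ddx4, a germ cell RNA helicase, by −0.21 (adjusted p = 0.448). Aged replicate 2 and young replicate 1 stood apart from their groups. The mean of the Sertoli cell markers, each centred over the 8 arrays, was −1.004 on aged replicate 2 and −0.81 on young replicate 1, against −0.07 to 0.51 on the other arrays. All aged arrays lay in 1 row of the single slide and all young arrays in the other, so slide row and age cannot be told apart.

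Among the 7 genes, Tex101 rose in aged cells and was the 1 member called, 1.68-fold higher. Over all genes tested, 0.655% were called in either direction and 0.498% higher. Kitlg averaged 1.81-fold lower and Ccnd2 1.73-fold lower in aged cells, and neither passed the adjusted threshold. Kit, Sohlh2, Dmrt1 and Dmrtb1 differed by −0.12 to 0.25, with intervals that all included 0. Aged and young values did not overlap for Tex101 (aged above) and Ccnd2 (aged below), 2 of 7 genes, against 14.3% of all genes tested, or 10.2% with aged above and 4.12% with aged below. Leaving out aged replicate 2 and young replicate 1 together, Tex101 and Kitlg were called, in a fit that called 27.4% of all genes; spike-in scaling called Kitlg and Ccnd2, with 9.36% of all genes. In 3 of the 7 genes the aged mean was higher and in 4 lower, against 63.4% higher over all genes. The median difference of the 7 was −0.03.

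**Figure D1:**
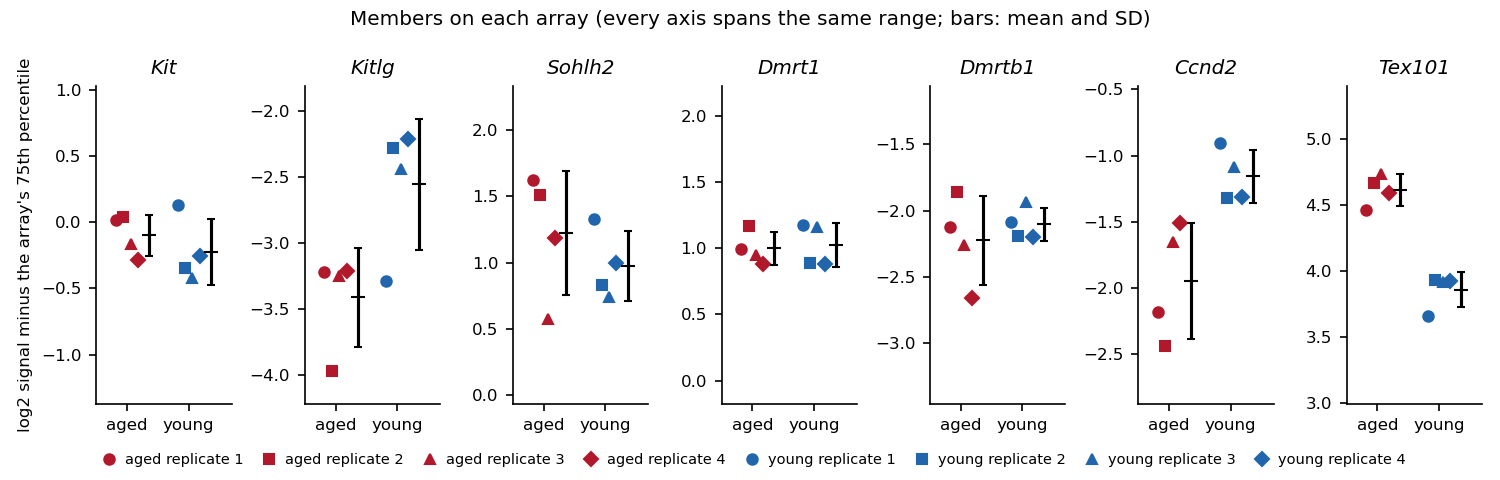
Level of each of the 7 measured genes on every array, as log2 signal minus the array's 75th percentile; points are arrays, aged left of young, and bars are group means. Tex101 lay at 4.46 to 4.73 on aged arrays and at 3.66 to 3.93 on young arrays, and the remaining genes other than Ccnd2 overlapped between the ages.

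KIT is the receptor that marks the differentiating spermatogonium, and its gene Kit lies on chromosome 14. Kit levels were 0.02, 0.04, −0.16 and −0.29 on aged arrays and 0.13, −0.35, −0.42 and −0.25 on young arrays. The highest value belonged to young replicate 1 and the lowest to young replicate 3, so the aged values lay inside the young range. The difference was 0.13 ± 0.15 (SE), with a 95% interval of −0.20 to 0.46 and an adjusted p of 0.571 (limma). Scaling to spike-in controls turned it to −0.33.

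Kitlg encodes KIT ligand, also called stem cell factor, which in the mouse occurs as a membrane-bound and a soluble form. Its level was low, at −3.22, −3.97, −3.25 and −3.21 on aged arrays and −3.29, −2.28, −2.44 and −2.21 on young arrays. All young replicates except replicate 1 lay above every aged value, and replicate 1 fell within the aged range. The difference was −0.85 ± 0.27 (SE), with an interval of −1.45 to −0.26 and an adjusted p of 0.0859 (limma). An exact two-sided permutation test over the 4 aged and 4 young arrays gave p = 0.114, where the smallest p that this design allows is 0.0286. Without young replicate 1 the difference was −1.10 and was called (adjusted p = 0.00757 in limma), in a fit that called 36.9% of all genes. With another background correction (normexp) it was −0.41.

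Kitlg had 3 probes, and the values above come from the only one that was well above background throughout, with signals of 22.7 to 96.6 intensity units. A second probe was above background on 2 aged and 3 young arrays and differed by −0.24. The third was above background on no array of either age.

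The bases before the annotated Kitlg start are shown because Kitlg had the widest difference among the members; they are 211 bases at chr7:36782410-36782620, plus strand, from RefSeq with build GRCr8. Capitals would mark E-boxes (CANNTG, which reads the same on both strands), the core bound by basic helix-loop-helix factors, and this stretch held none, while the full 250-base RefSeq window held 1, past the annotated start of the gene.
Kitlg: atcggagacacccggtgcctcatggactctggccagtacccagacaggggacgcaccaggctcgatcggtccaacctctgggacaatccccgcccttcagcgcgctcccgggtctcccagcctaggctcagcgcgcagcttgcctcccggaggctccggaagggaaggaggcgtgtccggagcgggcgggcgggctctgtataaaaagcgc

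Kitlg is a gene of somatic cells in the testis, and the levels of somatic markers are therefore given beside it. In these mixed samples, fewer cells of a type and less RNA per cell cannot be told apart. Of 17 Sertoli cell markers with a probe, 9 to 15 were above background per aged array and 9 to 16 per young array. The sum of their levels, in units of each array's 75th percentile, ran from 7.36 to 17.6 on aged arrays and from 6.01 to 16.6 on young arrays. Aged replicate 2 and young replicate 1, the arrays low in Sertoli cell markers, also held the lowest Kitlg value of their group. Aged replicate 3 had the highest Sertoli cell sum with Kitlg at −3.25, and young replicate 1 the lowest with Kitlg at −3.29. By the mean of the centred list, young replicates 2 to 4 were highest, at 0.51, 0.38 and 0.42, and aged replicate 3 was at 0.32. Amh, a product of immature Sertoli cells, was above background on 1 aged and 3 young arrays, and Sox9 matched no probe accession.

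The 13 markers of peritubular myoid and stromal cells summed to 1.89 to 3.91 on aged arrays and 3.21 to 13.1 on young arrays. Aged replicate 2 (1.89) and young replicate 1 (3.21) were lowest within their ages, as for Kitlg, and the other young arrays lay at 11.6 to 13.1. All 11 of those tested were lower in aged cells, by a median of −1.55, and 1 of them passed the test. Of these 11, 1 entered the test through the young arrays alone. The 13 Leydig cell markers summed to 12.3 to 13.4 on aged arrays and 11.2 to 12.9 on young arrays. Cyp11a1, the first enzyme of steroid synthesis, was above background on 4 aged and 3 young arrays. Mast cells themselves carry KIT, and of their 12 markers 2 to 4 were above background per aged array and 4 to 5 per young array, with sums of 1.88 to 2.25 on aged and 1.92 to 2.09 on young arrays. Cpa3, the mast cell carboxypeptidase, was above background on 0 of the 8 arrays, whereas Hdc and Mitf were above it on all 8. The 13 macrophage markers summed to 6.25 to 19.1 on aged arrays and 8.94 to 29.6 on young arrays, lowest on aged replicate 2 and young replicate 1 within their ages. All 10 tested macrophage markers had lower means in aged cells, by a median of −0.74, and none passed limma's test. Of these 10, 2 entered the test through the young arrays alone. The part of these cell types in the Kitlg difference was not tested.

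**Figure D2:**
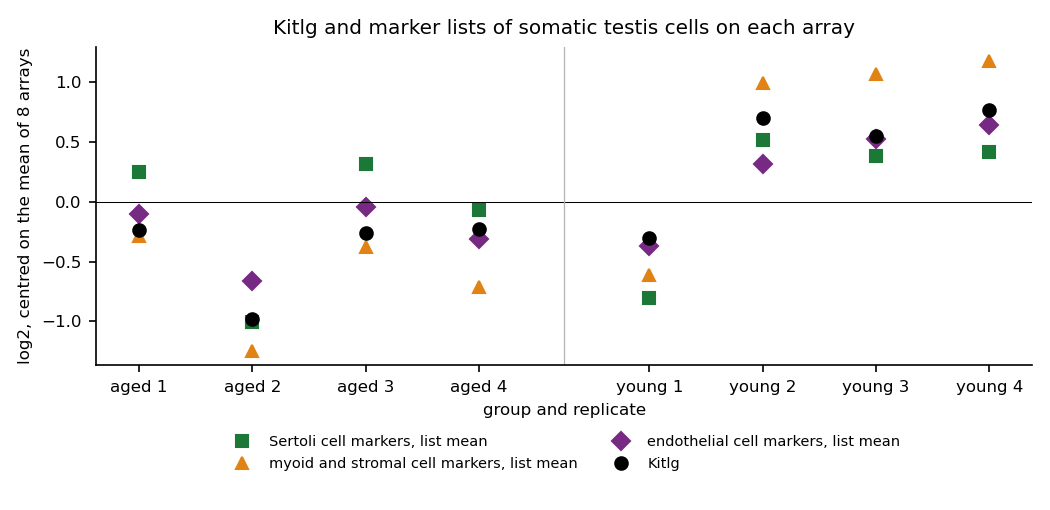
Kitlg and the means of marker lists on every array, each centred on its mean over the 8 arrays (log2), with aged arrays left of young arrays. Aged replicate 2 and young replicate 1 are the lowest of their ages for Kitlg and for every list plotted. On these arrays the myoid and stromal list was at −1.24 and −0.61, and the endothelial list at −0.66 and −0.37.

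Of 32 genes of KIT signalling, 30 had a probe and 28 were tested. None was called in limma's test. In aged cells 19 were higher and 9 lower, with a median difference of 0.04, against 63.4% higher and 0.11 over all genes. Of the 19 higher genes, 1 entered the test through the aged arrays alone. The smallest p-values belonged to Fyn, a Src family kinase, at −0.51 (adjusted p = 0.0751), to Akt2, a survival kinase downstream of phosphoinositide 3-kinase, at −0.39 (adjusted p = 0.0948), and to Src at −0.38 (adjusted p = 0.102). Fyn values overlapped between the ages, and those of Akt2 and Src were lower on every aged array than on any young array. Aged minus young, the median of the list was −0.41 under spike-in scaling, where the median of all genes was −0.35.

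SOHLH2 is a basic helix-loop-helix factor that, with SOHLH1, is needed for spermatogonial differentiation in the mouse. Sohlh2, on chromosome 2, had levels of 1.62, 1.51, 0.58 and 1.19 on aged arrays and 1.33, 0.83, 0.74 and 0.998 on young arrays. Aged replicates 1 and 2 lay above every young value and aged replicate 3 lay below all of them. The difference was 0.25 ± 0.23 (SE), with an interval of −0.28 to 0.78 and an adjusted p of 0.478 (limma). It was −0.20 under spike-in scaling. The duplicate spots of Sohlh2 on aged replicate 3 read 859 and 409 intensity units, 1.07 apart on the log2 scale. On the 7 other arrays they lay within 0.091 of each other. With the brighter spot of each probe, a setting added once the data had been seen, Sohlh2 differed by 0.36 (adjusted p = 0.170 in limma).

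DMRT1 is a DM domain factor that in the mouse holds back Stra8 and meiosis in spermatogonia. Dmrt1, on chromosome 1, had levels of 0.998, 1.17, 0.95 and 0.88 on aged arrays and 1.18, 0.89, 1.16 and 0.88 on young arrays. The ages overlapped throughout, and the group SDs were 0.12 in aged and 0.16 in young cells. The difference of −0.03 ± 0.12 (SE) had an interval of −0.30 to 0.24, the narrowest but one among the 7 genes, and was 0.13 under median scaling.

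DMRTB1, also called DMRT6, coordinates the exit from the spermatogonial programme in the mouse. Dmrtb1, on chromosome 5, had levels of −2.12, −1.86, −2.26 and −2.66 on aged arrays and −2.09, −2.19, −1.93 and −2.20 on young arrays. Aged replicate 2 gave the highest value and aged replicate 4 the lowest, with the young values between them. Its difference was −0.12 ± 0.17 (SE), with an interval of −0.50 to 0.26 (adjusted p = 0.638 in limma), and it turned to 0.03 under median scaling.

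**Figure D3:**
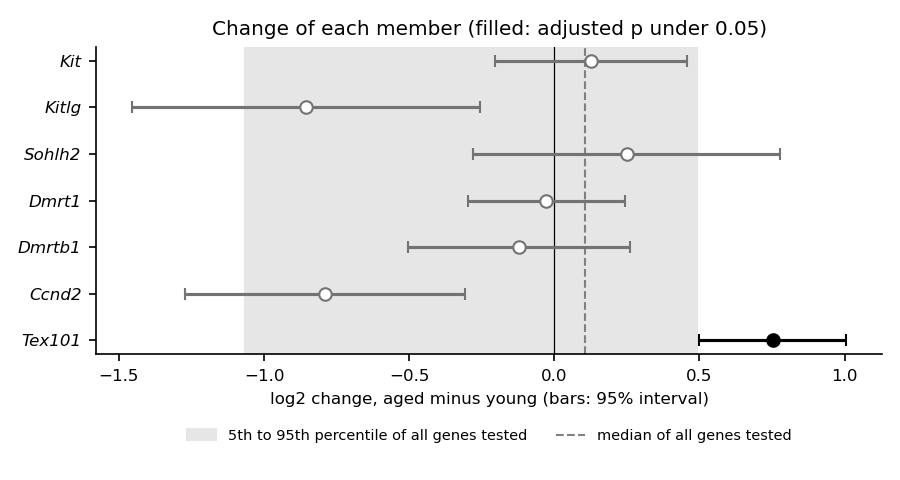
Difference of each measured gene between aged and young cells (log2, aged minus young) with its 95% interval from the limma fit. The intervals of Tex101, Ccnd2 and Kitlg exclude 0, and those of Kit, Sohlh2, Dmrt1 and Dmrtb1 include it.

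Other factors of the same families were set beside these. Of 22 basic helix-loop-helix and other germ cell transcription factors, 14 were tested and none was called, with 6 higher, 8 lower and a median of −0.09. Of the 8 lower genes, 1 entered the test through the young arrays alone. Tcf4, an E protein, differed by −0.82 (adjusted p = 0.0504), with every aged value below every young value. Crem, the switch of postmeiotic transcription, differed by −1.09 (adjusted p = 0.0859) and Sp4 by 0.40 (adjusted p = 0.0908). Crem was −0.12 on young replicate 1, inside the aged range of −0.56 to 0.01, and 0.74 to 1.59 on the other young arrays.

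Within the DM domain family 4 of 6 genes other than the members were tested and none was called. Dmrtc2, which in mouse spermatocytes acts in meiosis as DMRT7, differed by 0.73 (adjusted p = 0.0556), with aged levels of 0.65, 0.48, 0.52 and 0.17 and young levels of −0.15, −0.01, −0.45 and −0.51. Its aged and young values did not overlap. Dmrt2 entered the test through the young arrays alone, with 3 of 4 aged and 4 of 4 young arrays above background, and averaged −4.67 in aged and −3.49 in young cells. Dmrt3 entered through the aged arrays alone, with 4 of 4 aged and 3 of 4 young arrays above background, and averaged −4.61 in aged and −5.06 in young cells.

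Differentiating spermatogonia were described by 26 further genes, of which 13 were tested. None was called, 7 were higher and 6 lower in aged cells, and the median was 0.01. Pcna, the sliding clamp of replication, differed by 0.15 (adjusted p = 0.272), Nanos3, an RNA-binding regulator of germ cells, by −0.21 (adjusted p = 0.309), and Ccnb1, a mitotic cyclin, by −0.18 (adjusted p = 0.367). Leaving out young replicate 1 also gave no call in this list, in a fit that called 36.9% of all genes. The median of this list fell to −0.44 under spike-in scaling.

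Cyclin D2, the product of Ccnd2, carries cells through the G1 phase and appears in mouse spermatogonia as they begin to differentiate. Ccnd2, on chromosome 4, had levels of −2.18, −2.44, −1.65 and −1.51 on aged arrays and −0.91, −1.32, −1.08 and −1.32 on young arrays. Every aged value was below every young value, and aged replicates 1 and 2 were the lowest. The difference was −0.79 ± 0.21 (SE), with an interval of −1.27 to −0.31 and an adjusted p of 0.0705 (limma). An exact two-sided permutation test over 4 aged and 4 young arrays gave p = 0.0286, the smallest it can give. Without young replicate 1 the difference was −0.71 and was called (adjusted p = 0.0437 in limma), in a fit that called 36.9% of all genes. With normexp background correction the difference was −0.44. The means of myoid and stromal markers were also lower in aged cells. Aged replicate 2 was the lowest array for Ccnd2 and for the sum of these markers (1.89). Young replicate 1 had the highest Ccnd2 level, −0.91, with a marker sum of 3.21, against 11.6 to 13.1 on the other young arrays. The part of these markers in the Ccnd2 difference was not tested.

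The other D cyclins did not share the direction of Ccnd2 in their means. Ccnd1 levels were −0.04, 0.05, −0.05 and −0.15 on aged arrays and 0.19, −0.27, −0.30 and −0.40 on young arrays, a difference of 0.15 (adjusted p = 0.483). Ccnd3 differed by 0.12 (adjusted p = 0.624). Taken within each array, Ccnd2 minus Ccnd1 was −1.90 ± 0.51 in aged and −0.96 ± 0.14 in young cells (SD, n = 4 each). Ccnd2 minus Ccnd3 was −1.90 ± 0.38 in aged and −0.99 ± 0.15 in young cells (SD, n = 4 each). These pairs were picked after their values were seen, so they are given as a description, with no test. The within-array differences do not depend on a scaling that shifts a whole array by 1 value, but quantile scaling is not of that kind. With normexp background correction the ages stood 0.50 apart for Ccnd1, with Ccnd2 lower against it in aged cells. Over the 24 alternatives the age difference ran from −1.12 to −0.47 for Ccnd2 minus Ccnd1 and from −1.02 to −0.51 for Ccnd2 minus Ccnd3.

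Of 20 further genes for D cyclins, their kinases and inhibitors, 19 were tested and none was called. In aged cells 14 were higher and 5 lower, with a median of 0.13, close to the 0.11 of all genes, of which 63.4% were higher. Cdkn2b, an inhibitor of the kinases that D cyclins activate, had aged levels of −2.39, −2.22, −2.21 and −2.28 and young levels of −2.65, −2.82, −2.68 and −2.74. All 4 aged values were above all young values, and the difference was 0.45 (adjusted p = 0.0561 in limma). Ccne1 and Ccne2, the E cyclins of the G1 to S transition, differed by 0.34 (adjusted p = 0.0849) and 0.48 (adjusted p = 0.0907). The list's median was −0.32 under spike-in scaling.

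TEX101 is a glycosylphosphatidylinositol-anchored surface protein of germ cells, and in the mouse it is needed for sperm to pass the oviduct and for the maturation of ADAM3. Tex101, on chromosome 1, was the brightest of the 7 genes, at 4.46, 4.66, 4.73 and 4.59 on aged arrays and 3.66, 3.93, 3.92 and 3.92 on young arrays. Every aged value exceeded every young value, and young replicate 1 was the lowest of all. Tex101 rose by 0.75 ± 0.11 (SE) in aged cells, with an interval of 0.50 to 1.01 and an adjusted p of 0.0465 (limma). The exact two-sided permutation p over 4 aged and 4 young arrays was 0.0286, the smallest it can give. Its duplicate spots differed by at most 0.12 on any array, against a difference of 0.75 between the ages. The call was lost on leaving out any 1 array other than young replicate 1, with adjusted p-values of 0.0693 to 0.169 and differences of 0.69 to 0.80. With spike-in scaling Tex101 differed by 0.30 (adjusted p = 0.313) and with quantile scaling by 0.59 (adjusted p = 0.0678).

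The promoter of Tex101 is shown as that of the only member called, 250 bases at chr1:89387341-89387590, minus strand, from RefSeq with build GRCr8. Capitals mark its 1 E-box, which starts 138 bases before the gene. An E-box was present in 65.5% of 33469 rat promoter windows of the same length, so its presence does not set Tex101 apart.
Tex101: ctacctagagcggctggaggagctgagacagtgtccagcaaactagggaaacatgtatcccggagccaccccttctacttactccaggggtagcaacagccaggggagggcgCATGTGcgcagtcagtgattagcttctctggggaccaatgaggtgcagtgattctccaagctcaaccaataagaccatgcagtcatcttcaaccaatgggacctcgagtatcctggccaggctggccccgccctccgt

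Genes of meiotic entry and of the meiotic chromosome axis were higher in aged cells in their means. Of 22 such genes 14 were tested and all 14 were higher, as were 63.4% of all genes. The median of the 14 was 0.50 (0.04 under spike-in scaling), and 1, Sycp3, was called. Without young replicate 1, 9 of the 14 were called higher, in a fit that called 22.3% of all genes higher. The values of 7 of the 14 did not overlap, with aged above young, as did those of 10.2% of all genes.

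Sycp3, a protein of the axial element of the synaptonemal complex, had levels of 3.35, 3.05, 3.17 and 2.88 on aged arrays and 2.53, 1.83, 1.63 and 1.70 on young arrays. It rose by 1.19 ± 0.20 (SE; adjusted p = 0.0465 in limma), and young replicate 1 was the young array nearest to the aged ones. Its call, like that of Tex101, was lost on leaving out any 1 array other than young replicate 1, with adjusted p-values of 0.0709 to 0.169 and differences of 1.09 to 1.27; over the 24 alternatives it was lost in 12. Stag3, a meiotic cohesin subunit, differed by 0.73 (adjusted p = 0.0504) and Hormad1, an axis protein of unsynapsed chromosomes, by 0.74 (adjusted p = 0.0561). Aged and young values of both did not overlap. Spermatocyte markers share Sycp1, Sycp3 and Hormad1 with the meiotic entry list. Of the 15 markers, 6 were called higher and none was called lower, with 11 higher and 4 lower in aged cells and a median of 0.72. Without young replicate 1, 9 were called higher and 3 lower. Among the 4 lower genes Ccna1, a cyclin of late spermatocytes, was at −1.54 (adjusted p = 0.0527) and Ldhc at −0.94 (adjusted p = 0.149). The summed level of the list overlapped between the ages, at 43.7 to 58.6 on aged arrays and 39.9 to 59.2 on young arrays. The mean of the list, centred over the 8 arrays, ran from −0.10 to 0.39 on aged arrays and from −0.21 to −0.12 on young arrays. The part of spermatocyte number in the Tex101 and Sycp3 differences was not tested.

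**Figure D4:**
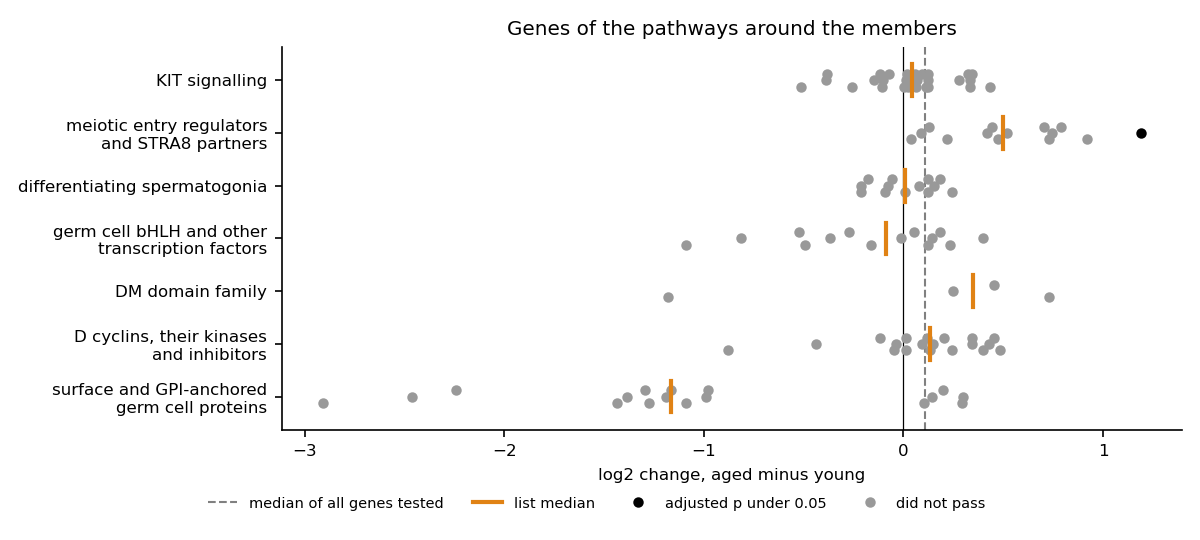
Log2 difference (aged minus young) of every tested gene in the lists set beside the members, 1 point per gene, with the list medians and the median of all genes. The meiotic entry list lies wholly above 0, with a median of 0.50, and the surface protein list has the lowest median of the lists plotted, −1.16.

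Other surface and glycosylphosphatidylinositol-anchored proteins of germ cells did not follow Tex101 in their means. Of 20 genes, 17 were tested, none was called in the test, 5 were higher and 12 lower in aged cells, and the median was −1.16. Spam1, a sperm surface hyaluronidase, had levels of −2.84, −3.63, −3.43 and −2.77 on aged arrays and −2.25, −0.74, −0.09 and 0.26 on young arrays, a difference of −2.46 (adjusted p = 0.0531). Hyal5, another hyaluronidase, entered the test through the young arrays alone, being above background on 1 of 4 aged and 4 of 4 young arrays; it is counted among the 12 lower genes. The other 16 tested genes were above background on all arrays. Spaca4, a sperm acrosome membrane protein, differed by −2.24 (adjusted p = 0.0561). Young replicate 1 gave the lowest young value of both Spam1 and Spaca4.

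Spermatid markers ran in the same direction. All 16 tested spermatid markers were lower in aged cells, by a median of −0.99, and none was called in limma's test. Of these 16, 1 entered the test through the young arrays alone. The mean of that list ran from −1.19 to −0.13 on aged arrays and from −0.54 to 1.11 on young arrays. Spermatid markers had the highest summed level of all marker lists on every array. In the units of the other sums, it was 249.5 to 505.0 on aged arrays and 341.0 to 839.8 on young arrays. Markers of undifferentiated spermatogonia, also 16 genes, summed to 71.4 to 79.7 on aged arrays and 62.9 to 87.1 on young arrays. Without young replicate 1, 16 of 16 spermatid markers and 12 of 17 surface genes were called lower, in a fit that called 14.6% of all genes lower. The part of spermatids in the surface genes was not tested.

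For each member, the genes with the most similar profile were taken as those with the smallest root mean square difference over the 8 arrays, each gene centred on its mean, among 10233 genes compared. Kit was nearest to Esd (0.031) and Eif3j (0.034), Dmrt1 to Atg5 (0.055) and Slc30a7 (0.062), and Dmrtb1 to C15h14orf93 (0.092) and Akirin1 (0.098). Sohlh2 was nearest to Nipa2 and Npm1, both at 0.104. Tex101 was nearest to Ogfod3 (0.095) and Chgb (0.108). Chgb, which encodes a secretory granule protein, was called and differed by 0.85 (adjusted p = 0.0465 in limma; the call was lost in 13 of 24 alternatives), while Ogfod3 differed by 0.61 (adjusted p = 0.0542 in limma).

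Kitlg was nearest to Gpx8 (0.113) and Ifitm1 (0.119), which differed by −0.71 and −0.72. Both were lowest in their groups on aged replicate 2 and young replicate 1, like Kitlg, for whose profile they were picked. Ccnd2 had no gene as near, with Tiam1 at 0.163 and Sdc3 at 0.177, which differed by −0.72 (adjusted p = 0.0691 in limma) and −0.58 (adjusted p = 0.0895 in limma).

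**Figure D5:**
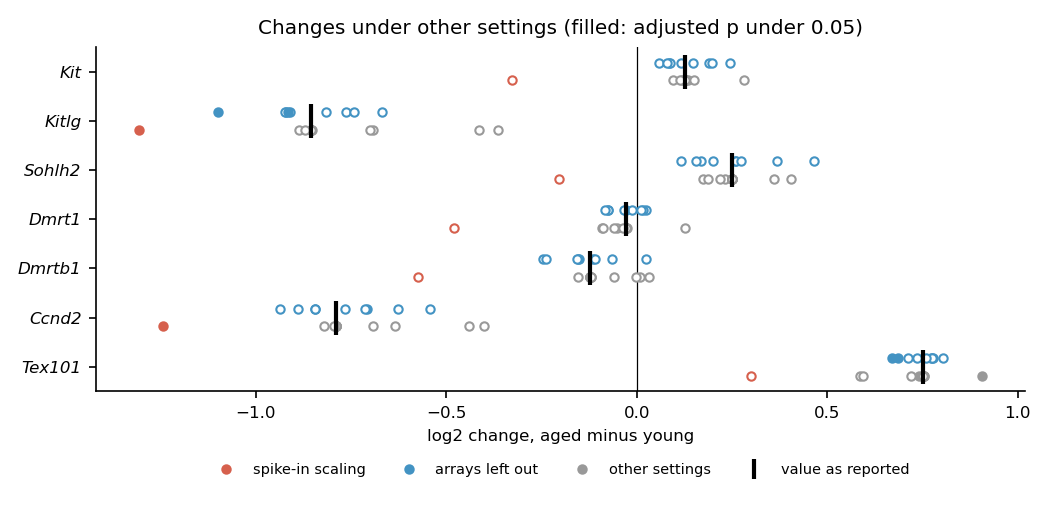
Log2 difference (aged minus young) of the 7 measured genes under each processing alternative, 1 point per alternative, with the reported value marked. Tex101 stayed above 0 (0.30 to 0.91), and Kitlg (−1.31 to −0.36) and Ccnd2 (−1.24 to −0.40) stayed below it in all 24 alternatives.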

How the data were processed

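CD9-positive testis cells of 4 aged and 4 young rats' samples were measured on one-colour arrays. The deposited processed signal is an intensity from which, per the file headers, Agilent Feature Extraction (10.7.3.1) had subtracted background and a spatial trend. The submitters' processing notes give version 12.5. Other deposited columns mark spots as well above background, saturated or outliers. The authors' deposited log2 table equalled the 75th-percentile-scaled signals, centred per probe, within 0.00562; its column medians were −0.02, 0.05, 0.07 and −0.003 for aged and 0.09, −0.07, −0.14 and −0.06 for young replicates 1 to 4.

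Control and outlier spots were left out, log2 signals were scaled to each array's 75th percentile (326 to 524 intensity units) and duplicate spots averaged. Accessions gave the gene names through RefSeq (17998 of 30367 matched). Probes entered the test when, in 1 age group or both, each array had a share of 0.5 or more of the probe's spots well above background, and the brightest kept probe stood for its gene, which left 10236 genes. Ages were compared with the two-sided moderated test of limma 3.58.1 (lmFit, eBayes; 9.15 degrees of freedom) in R 4.3.3. All adjusted p-values come from this fit, Benjamini-Hochberg adjusted over all 10236 genes, unless an alternative is named. Only the limma fit was tested on simulated data, with independent noise for each gene and array. That simulation did not cover scaling, filtering, probe choice or a shift shared by a whole array. Between arrays, correlations over the tested genes with a value on every array were 0.932 to 0.996, and no array repeated another.

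The members and lists were chosen with earlier results of these data known. The naming rule took all members, up to 3 genes of each pathway list with the smallest p, up to 2 markers of each cell type with the highest level, the markers Cd9, Ddx4, Sox9, Amh, Cyp11a1 and Cpa3 in every case, and the 2 genes nearest to each member. Ccnd1, Ccnd3 and Ccna1 were added after their values were seen. The alternatives were 22 planned and 2 added after seeing the data, in background correction, scaling, filter, probe choice, test, replicate block and arrays left out.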

Additional observations from a re-analysis of the deposited data

Results flagged for a closer look

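In 13 of 126 groups checked, 1 array lay far from the other 3 of its age, by Dixon's ratio of the gap to the group's range, past its 95% critical value. Chance alone flags about 1 in 20 groups, and the genes checked are not independent of each other. Among the members, Kitlg was set apart in aged cells by replicate 2, at −3.97 against −3.25 to −3.21 (ratio 0.9495). Tex101 was set apart in young cells by replicate 1, at 3.66 against 3.92 to 3.93 (ratio 0.9355).

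Young replicate 1 also stood apart for Clu, at 1.54 against 2.92 to 3.02 (0.9346), and Cyp26b1, at −0.41 against 1.94 to 2.26 (0.8807). Both were on the Sertoli cell list, but Clu differed by 0.23 between the ages and Cyp26b1 by −1.83. The same array stood apart for the stromal collagen gene Col1a2 (0.9965), at −0.74 against 1.06. It did so for the smooth muscle myosin gene Myh11 (0.8866), at −0.98 against 1.62 to 1.96. Myh11 differed by −2.18 between the ages.

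Gpx8 stood apart on aged replicate 2 (0.8921) and young replicate 1 (0.9783), and Ifitm1 on aged replicate 2 (0.8429) and young replicate 1 (0.8833). Both were picked for their nearness to Kitlg over these 8 arrays, so their flags are not independent of its profile. Kitlg itself was flagged on aged replicate 2 only. Ldhc, the germ cell lactate dehydrogenase, was 2.26 on aged replicate 2 against 3.51 to 3.65 (0.8991). Src on young replicate 3 (0.8437) and Hdc, the mast cell histidine decarboxylase, on young replicate 2 (0.8442) were the remaining cases.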

How the results depend on the processing

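Across the 24 alternatives Tex101 stayed higher and Kitlg and Ccnd2 stayed lower in aged cells, and Tex101 lost its call in 15 of them. With 1 array left out, 0 to 3776 genes and 0 to 3 members were called; only leaving out young replicate 1 (3776 genes, 36.9%, and 3 of 7 members) or young replicate 2 (1 gene) gave any call in limma, against 1951 to 3009 genes at an unadjusted p under 0.05 where few or none were called. Genes called numbered 633 and 259 with normexp (75th percentile and quantile), 1330 with median and 958 with spike-in scaling, and 270 with trend and robust variance. The fits with no scaling, no filter on dim probes or unnamed probes added called 0 genes (1389, 3339 and 4929 at an unadjusted p under 0.05). After seeing the data, the brighter spot of each probe gave 4 genes, and leaving out aged replicate 2 and young replicate 1 together gave 2804 (27.4%). Members called were 2 under spike-in scaling (Kitlg and Ccnd2), 2 without those arrays (Tex101 and Kitlg, Kitlg at −0.91), and 0 with normexp quantile, quantile or no scaling, no filter, unnamed probes and the brighter spot. Directions turned for Kit (−0.33) and Sohlh2 (−0.20) with spike-in scaling, for Dmrtb1 with normexp quantile (0.0077), median scaling (0.033) and without aged replicate 4 (0.023), and for Dmrt1 with median scaling (0.13) and without young replicates 1 (0.023) or 3 (0.016) or aged replicate 4 (0.012). With 1 array left out, Dmrt1 ran from −0.084 to 0.023 and Dmrtb1 from −0.24 to 0.023. The cause was not tested.

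Once each gene's mean within its age group was subtracted, same-numbered arrays correlated at −0.26, −0.12, 0.44 and 0.35. The numbers were therefore not taken as pairs, and not every array correlated best with its own number. The replicate block left 0 genes called (3231 at an unadjusted p under 0.05 in limma) and 0 members, with Tex101 at 0.75 (adjusted p = 0.0773). Signal over background limits Kitlg, Dmrtb1 and Ccnd2, the 3 dimmest members.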
